A study of Saccharomyces cerevisiae with 12 samples.

Results

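The comparison between the Ded1 IDRm strain and the wild-type strain after 10 min at 42 °C was read from 4 of 12 ribosome footprint libraries of Saccharomyces cerevisiae, 2 of each strain, over 5719 of 6697 genes that passed a filter on low counts. Libraries entered by their labelled strain and temperature, and no measured value was used to choose them. Both strains were W303 Ade+, a laboratory yeast background. The wild-type strain, named WT, carried Ded1-mCherry and the other, named IDRm, carried Ded1_IDRm-mCherry, so Ded1 was fused to the red fluorescent protein mCherry in both. The labels do not say which residues the IDRm variant changes. Duplicate pre-cultures of each strain were grown at 30 °C, and every main culture was divided over 30, 40 and 42 °C for 10 min. The series thus has 6 groups with 2 libraries in each. The number of independent transformants behind a strain is not given in the sources used here. The question was which genes gained or lost ribosome footprints in IDRm relative to WT at the highest temperature.

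Ded1 is an essential DEAD-box RNA helicase of translation initiation. It helps the small ribosomal subunit to scan the leaders of mRNAs, above all structured ones. Its ends are intrinsically disordered regions, the IDRs of the variant's name, and Ded1 is known to gather into condensates in heated yeast cells. In heat, yeast cuts back the making of ribosomes and many housekeeping proteins and makes chaperones and protective enzymes, under the transcription factors Hsf1 and Msn2/Msn4. Msn2 and Msn4 bind the stress response element, with the letters AGGGG or, on the other strand, CCCCT.

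Stretches before 4 of the genes with the largest excess in IDRm at 42 °C are shown because the stress response element, of 3 motifs searched, was the one whose share differed most between the higher genes and all genes. Each is the 300-base stretch that ends 150 bases before the start codon in the R64 genome of RefSeq, written in the direction of the gene, with the stress response elements in capitals. They are chrVI:106806-107105 on the plus strand before HSP12, chrXIII:477757-478056 on the minus strand before PGM2, chrXV:231906-232205 on the minus strand before DDR2 and chrXIV:692111-692410 on the plus strand before EGO4. They were picked among the leading genes for their number of elements, after those were counted: 5 in HSP12, 5 in PGM2, 3 in DDR2 and 4 in EGO4.

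HSP12: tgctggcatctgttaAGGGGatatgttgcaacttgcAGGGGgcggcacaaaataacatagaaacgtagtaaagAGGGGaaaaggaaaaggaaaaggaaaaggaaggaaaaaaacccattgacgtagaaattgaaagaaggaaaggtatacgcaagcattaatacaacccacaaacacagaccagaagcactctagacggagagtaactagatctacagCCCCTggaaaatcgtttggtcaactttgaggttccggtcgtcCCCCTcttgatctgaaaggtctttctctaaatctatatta
PGM2: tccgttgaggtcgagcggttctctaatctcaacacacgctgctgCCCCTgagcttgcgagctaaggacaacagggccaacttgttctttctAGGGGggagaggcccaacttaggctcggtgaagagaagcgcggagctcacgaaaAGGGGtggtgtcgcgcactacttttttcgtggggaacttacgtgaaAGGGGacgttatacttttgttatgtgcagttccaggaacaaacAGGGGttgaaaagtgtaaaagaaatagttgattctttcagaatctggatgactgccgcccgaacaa
DDR2: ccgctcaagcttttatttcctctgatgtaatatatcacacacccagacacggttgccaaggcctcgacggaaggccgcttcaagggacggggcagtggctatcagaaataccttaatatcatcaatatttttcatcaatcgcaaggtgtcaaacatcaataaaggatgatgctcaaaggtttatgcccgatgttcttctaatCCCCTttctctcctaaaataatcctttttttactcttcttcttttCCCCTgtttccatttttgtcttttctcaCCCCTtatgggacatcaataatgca
EGO4: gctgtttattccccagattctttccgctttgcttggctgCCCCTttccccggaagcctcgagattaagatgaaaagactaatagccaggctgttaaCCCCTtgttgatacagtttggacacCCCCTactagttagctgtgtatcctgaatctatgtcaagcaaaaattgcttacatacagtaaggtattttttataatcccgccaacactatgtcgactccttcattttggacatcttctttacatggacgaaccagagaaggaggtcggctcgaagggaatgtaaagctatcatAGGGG

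Depth over the 12 libraries was between 3429950 and 7851819 counts. At 42 °C the IDRm libraries held 4412003 and 4084186 and the WT libraries 5958521 and 3979334. Replicates at 42 °C had a Pearson correlation of log2 CPM over genes of 0.9928 in IDRm and 0.9924 in WT. The chi-square per degree of freedom between replicates was 1.98 in IDRm and 5.03 in WT at 42 °C, so the WT replicates were further apart. The replicates of WT at 30 °C, which share the estimate of spread, also stood apart, at 5.26, with the small heat shock protein HSP26 at 27.7 and 115 CPM. Levels below are in CPM, counts scaled by the library size after TMM normalization, in the order of replicates 1 and 2. Differences are log2 IDRm minus WT with an approximate standard error, and genes with an edgeR adjusted p up to 0.05 count as called. Without a recorded spike-in or RNA sequencing of the same cells, a level is a share of all footprints, in which mRNA amount and translation, or fewer cells and less RNA per cell, cannot be told apart.

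DED1 (YOR204W, chromosome XV, 722911 to 724725), the altered gene, had 1272 and 1331 CPM in IDRm and 1280 and 1457 CPM in WT, a difference of −0.07 ± 0.07 (edgeR, adjusted p = 0.423). The libraries overlapped, and with scaling by library size alone DED1 was called at −0.18 (edgeR, adjusted p = 0.00983). Both strains carry the gene, so its count does not check which allele a library held. Markers of MATa cells were read in each library at 42 °C, with a summed level of 648 to 833 CPM over 8 genes, against 29.4 to 43.0 CPM over the 3 alpha cell markers tested.

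At 42 °C, 1165 genes (20.4%) were called higher in IDRm and 1183 (20.7%) lower, or 41.1% in either direction. The changes were mostly moderate: the median fold was 1.43 among genes called higher and 1.52 among those called lower. At least 2-fold differences were called for 145 genes higher (2.54%) and 215 lower (3.76%). Libraries of the strains did not overlap for 2009 genes with IDRm above (35.1%) and 1986 with IDRm below (34.7%), and these include 1161 of the genes called higher and 1181 of those called lower. Scaling by library size alone moved the median of all genes to −0.11 and gave 813 genes higher and 1587 lower, and the Wald test of DESeq2 gave 742 and 960.

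**Figure D1:**
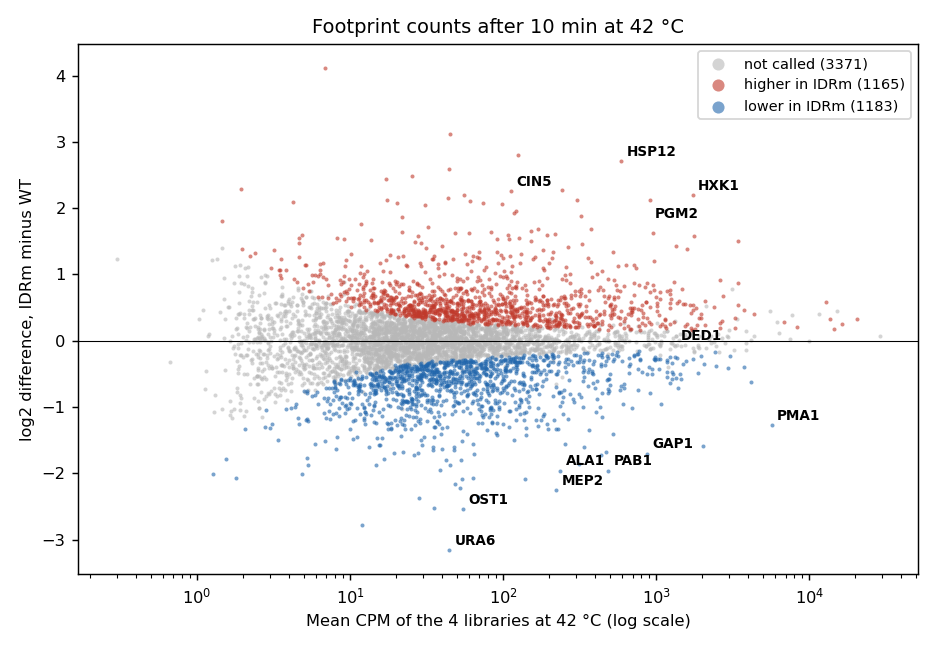
Each point is a gene, with its mean CPM over the 4 libraries at 42 °C on a log axis and its log2 difference, IDRm minus WT. Red points are the 1165 genes called higher, blue the 1183 called lower and grey those not called; HSP12, HXK1 and PGM2 lie high at large counts, URA6 and OST1 low, and DED1 near 0.

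The 12 genes with the largest excess in IDRm by the rule used, which asks that the strains not overlap, were EGO4, HSP12, SNZ1, DDR2, CIN5, CSR2, HXK1, SPG4, PGM2, CTT1, IGD1 and COX26. EGO4 (YNR034W-A, chromosome XIV, 692561 to 692857), a small protein known to be under Msn2 and Msn4 control, had 250.2 and 186 CPM in IDRm and 36.1 and 25.2 CPM in WT, a difference of 2.80 ± 0.29 (edgeR, adjusted p = 2.78e-04). HSP12 (YFL014W, chromosome VI, 107256 to 107585), a small stress protein that stabilises membranes, had 1087 and 954 CPM in IDRm and 174 and 136 CPM in WT, a difference of 2.71 ± 0.31 (edgeR, adjusted p = 4.86e-04). SNZ1 (YMR096W, chromosome XIII, 458408 to 459301), an enzyme of vitamin B6 synthesis that is high in stationary cells, had 72.3 and 79.3 CPM in IDRm and 12.3 and 13.1 CPM in WT, a difference of 2.59 ± 0.13 (edgeR, adjusted p = 1.47e-16). In each of these the lower IDRm library lay far above the higher WT library. DDR2 (YOL052C-A, chromosome XV, 231570 to 231755), a small protein induced by many stresses, had 424 and 377 CPM in IDRm and 87.5 and 76.5 CPM in WT, a difference of 2.28 ± 0.24 (edgeR, adjusted p = 2.78e-04). CIN5 (YOR028C, chromosome XV, 383533 to 384420), a basic leucine zipper transcription factor of the Yap family, had 198 and 175 CPM in IDRm and 41.7 and 35.2 CPM in WT, a difference of 2.26 ± 0.10 (edgeR, adjusted p = 4.38e-18). CSR2 (YPR030W, chromosome XVI, 627880 to 631245), an arrestin-like adaptor of a ubiquitin ligase, had 98.1 and 84.1 CPM in IDRm and 22.3 and 16.6 CPM in WT, a difference of 2.19 ± 0.13 (edgeR, adjusted p = 9.73e-15). The WT replicates of CSR2 were further apart in ratio than its IDRm replicates, though closer in CPM.

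HXK1 (YFR053C, chromosome VI, 253592 to 255049), the hexokinase isoenzyme that glucose represses, had 2926 and 2750 CPM in IDRm and 659.8 and 581 CPM in WT, a difference of 2.19 ± 0.15 (edgeR, adjusted p = 2.94e-06). SPG4 (YMR107W, chromosome XIII, 483014 to 483361), a protein needed for survival in stationary phase at high temperature, had 73.2 and 69.4 CPM in IDRm and 16.4 and 15.4 CPM in WT, a difference of 2.16 ± 0.15 (edgeR, adjusted p = 7.19e-13). PGM2 (YMR105C, chromosome XIII, 475897 to 477606), the major phosphoglucomutase, which links glycolysis to glycogen and trehalose, had 1561 and 1386 CPM in IDRm and 383 and 289 CPM in WT, a difference of 2.13 ± 0.29 (edgeR, adjusted p = 0.00132). Their IDRm libraries were all high and close together. CTT1 (YGR088W, chromosome VII, 654634 to 656322), the cytosolic catalase, had 543 and 453 CPM in IDRm and 129 and 96.6 CPM in WT, a difference of 2.13 ± 0.29 (edgeR, adjusted p = 0.00132). IGD1 (YFR017C, chromosome VI, 182274 to 182861), an inhibitor of glycogen breakdown, had 97.4 and 97.8 CPM in IDRm and 20.7 and 25.2 CPM in WT, a difference of 2.11 ± 0.12 (edgeR, adjusted p = 2.10e-15). COX26 (YDR119W-A, chromosome IV, 691014 to 691214), a small subunit of cytochrome c oxidase, had 36.7 and 29.1 CPM in IDRm and 8.13 and 7.23 CPM in WT, a difference of 2.08 ± 0.18 (edgeR, adjusted p = 2.86e-11). HXK1 and PGM2 are abundant genes, while COX26 rests on few counts. The hexose transporter genes HXT6 and HXT7 had larger differences, 4.11 ± 0.35 and 3.12 ± 0.16, but share 96.0% each of their 28-mers (runs of 28 bases) with other genes, so the split of reads between them is uncertain. Without WT 42 °C replicate 1 the value of HXT6 was 4.72.

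The 12 genes with the largest deficit were chosen by the same rule. URA6 (YKL024C, chromosome XI, 392526 to 393140), the uridylate kinase that makes UDP, had 8.74 and 8.89 CPM in IDRm and 72.3 and 86.8 CPM in WT, a difference of −3.16 ± 0.16 (edgeR, adjusted p = 9.56e-17). OST1 (YJL002C, chromosome X, 433221 to 434651), a subunit of oligosaccharyltransferase, which attaches glycans to secretory proteins, had 17.3 and 14.7 CPM in IDRm and 97.4 and 88.9 CPM in WT, a difference of −2.54 ± 0.13 (edgeR, adjusted p = 1.04e-16). PDE2 (YOR360C, chromosome XV, 1013241 to 1014821), the high-affinity cyclic AMP phosphodiesterase, had 11.6 and 9.13 CPM in IDRm and 62.2 and 57.4 CPM in WT, a difference of −2.53 ± 0.15 (edgeR, adjusted p = 7.37e-15). The IDRm libraries of URA6 were nearly equal and below both WT libraries. VIP1 (YLR410W, chromosome XII, 937541 to 940981), an inositol pyrophosphate kinase, had 24.9 and 19.9 CPM in IDRm and 121 and 108 CPM in WT, a difference of −2.35 ± 0.12 (edgeR, adjusted p = 1.04e-16). MEP2 (YNL142W, chromosome XIV, 357453 to 358952), an ammonium permease and sensor, had 69.0 and 86.0 CPM in IDRm and 369 and 368 CPM in WT, a difference of −2.25 ± 0.10 (edgeR, adjusted p = 1.75e-17). GCD7 (YLR291C, chromosome XII, 718317 to 719462), a subunit of eIF2B, which recycles the initiation factor eIF2, had 19.0 and 17.8 CPM in IDRm and 87.4 and 84.4 CPM in WT, a difference of −2.22 ± 0.13 (edgeR, adjusted p = 3.00e-15). In all 6 genes both IDRm libraries were low.

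IMD4 (YML056C, chromosome XIII, 162194 to 164176), an IMP dehydrogenase of guanine nucleotide synthesis, had 14.9 and 21.1 CPM in IDRm and 84.4 and 74.2 CPM in WT, a difference of −2.16 ± 0.13 (edgeR, adjusted p = 7.34e-15). ERG2 (YMR202W, chromosome XIII, 667537 to 668205), the sterol isomerase of ergosterol synthesis, had 49.2 and 56.9 CPM in IDRm and 203 and 248 CPM in WT, a difference of −2.08 ± 0.11 (edgeR, adjusted p = 2.82e-16). SBH2 (YER019C-A, chromosome V, 194273 to 194539), a subunit of the Ssh1 translocon of the endoplasmic reticulum, had 22.7 and 18.0 CPM in IDRm and 80.3 and 94.2 CPM in WT, a difference of −2.08 ± 0.14 (edgeR, adjusted p = 4.75e-14). The IDRm replicates of IMD4 were further apart in ratio than those of WT, though closer in CPM. ALA1 (YOR335C, chromosome XV, 946233 to 949109), alanyl-tRNA synthetase, had 91.8 and 102 CPM in IDRm and 391 and 361 CPM in WT, a difference of −1.96 ± 0.08 (edgeR, adjusted p = 8.97e-19). PAB1 (YER165W, chromosome V, 510373 to 512106), which encodes the poly(A)-binding protein, had 205 and 191 CPM in IDRm and 768 and 775 CPM in WT, a difference of −1.96 ± 0.07 (edgeR, adjusted p = 5.63e-20). APL5 (YPL195W, chromosome XVI, 176223 to 179021), an adaptor subunit of vesicle transport to the vacuole, had 15.5 and 16.8 CPM in IDRm and 66.2 and 57.1 CPM in WT, a difference of −1.94 ± 0.16 (edgeR, adjusted p = 1.37e-11). PAB1 had the closest replicates of the 3 in WT.

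**Figure D2:**
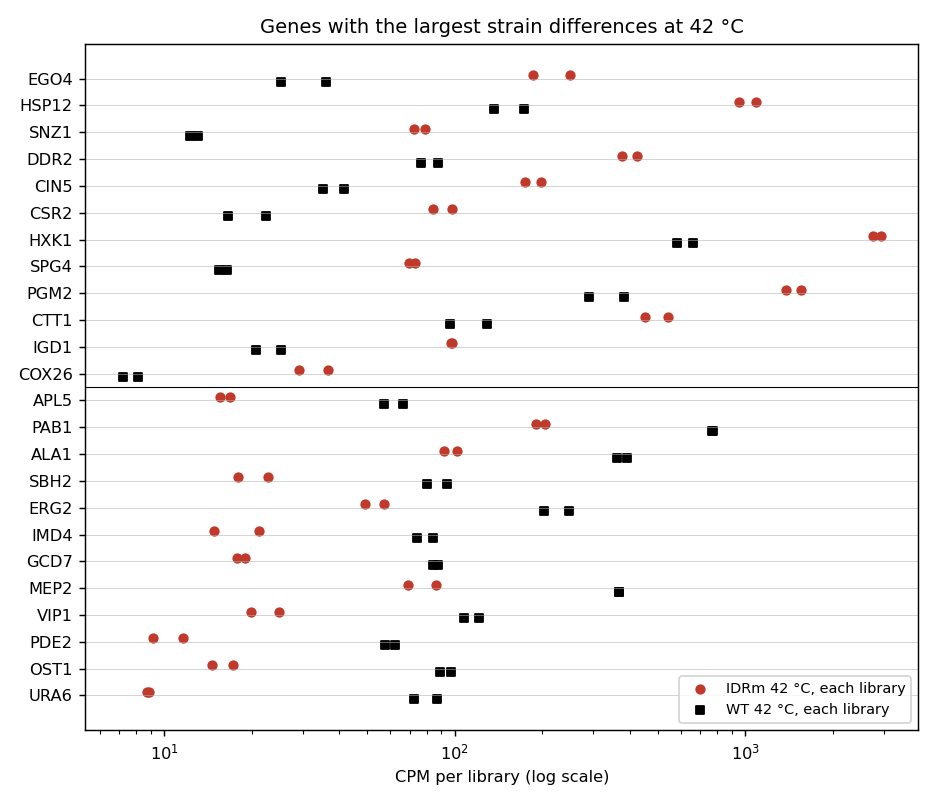
CPM on a log axis in each of the 4 libraries at 42 °C for the 12 genes with the largest excess and the 12 with the largest deficit in IDRm, circles for IDRm and squares for WT. The genes were chosen with no overlap of the strains; URA6 has 8.74 and 8.89 CPM in IDRm against 72.3 and 86.8 CPM in WT.

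General stress genes, the Msn2/Msn4 group, were higher nearly throughout: 35 of 38 were called higher and 2 lower, with a list median of 1.30 against 0.00 over all genes tested. The shares over all genes tested at 42 °C, for the lists here and below, were 20.4% called higher and 20.7% lower. For these lists, counts under another setting are given, members called higher first, where a count moved by over 1.5 times. The counts became 33 and 1 by the DESeq2 Wald test or without IDRm 42 °C replicate 1. Besides HSP12, DDR2 and HXK1, the list holds the trehalose genes TPS1 and TPS2 and the glycogen genes GPH1 and GSY2, at 0.64, 0.49, 1.69 and 1.51. The exceptions, named after their values were seen, were the membrane proteins PHM7 and MRH1, called lower at −0.50 and −0.23, and TSL1, a trehalose synthase subunit, not called at 0.06. On the same genes, the list medians were 0.60 at 40 °C and 0.29 at 30 °C, with 24 called higher at 40 °C, where 11.4% of all genes were, and 11 at 30 °C, where 9.58% were.

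Heat-inducible chaperones of the cytosol bind and refold damaged proteins. In this list 15 of 27 were called higher and 1 lower, with a median of 0.38 and a range of −0.55 to 1.60; the list medians were 0.11 at 40 °C and −0.01 at 30 °C. Members called higher and lower numbered 12 and 0 by the DESeq2 Wald test or without IDRm 42 °C replicate 2 and 11 and 0 without IDRm 42 °C replicate 1 or without WT 42 °C replicate 1. HSP31, a chaperone and methylglyoxalase, had 306 and 278 CPM in IDRm and 102 and 90.3 CPM in WT, a difference of 1.60 ± 0.09 (edgeR, adjusted p = 3.10e-16). SSE2, a nucleotide exchange factor of Hsp70, had 673 and 700.1 CPM in IDRm and 385 and 345 CPM in WT, a difference of 0.91 ± 0.08 (edgeR, adjusted p = 1.88e-10). SSA3, a stress-inducible Hsp70, had 426 and 421 CPM in IDRm and 266 and 263 CPM in WT, a difference of 0.68 ± 0.15 (edgeR, adjusted p = 0.00601). The strains did not overlap in these genes, although the call of SSA3 ended without IDRm 42 °C replicate 1 and without WT 42 °C replicate 1 (edgeR, adjusted p = 0.054 and 0.0558). The member called lower, named after its value was seen, was CUR1, a factor that sorts misfolded proteins, at −0.55.

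The abundant heat shock genes HSP104, SSA4, HSP26 and HSP82 were not called with all 12 libraries in the fit. HSP104, the disaggregase, had 17410 and 17646 CPM in IDRm and 12907 and 12890 CPM in WT, a difference of 0.44 ± 0.20 (edgeR, adjusted p = 0.122). SSA4, the strongly heat-inducible Hsp70, had 13083 and 13400 CPM in IDRm and 9879 and 10121 CPM in WT, a difference of 0.41 ± 0.47 (edgeR, adjusted p = 0.556). HSP26, a small heat shock protein, had 4099 and 3773 CPM in IDRm and 2395 and 2181 CPM in WT, a difference of 0.78 ± 0.47 (edgeR, adjusted p = 0.239). HSP82, the inducible Hsp90, had 8827 and 8710 CPM in IDRm and 6765 and 6671 CPM in WT, a difference of 0.38 ± 0.17 (edgeR, adjusted p = 0.113). In all 4 genes both IDRm libraries at 42 °C lay above both WT libraries. Fitted with the 4 libraries at 42 °C alone, the same differences were called, with edgeR adjusted p = 1.69e-04 for HSP104, 3.65e-04 for SSA4, 2.52e-07 for HSP26 and 4.81e-04 for HSP82. With all libraries but the 2 of WT at 30 °C, HSP104, HSP26 and HSP82 were called, at edgeR adjusted p = 8.63e-05, 1.37e-07 and 4.87e-04, and SSA4 was not, at edgeR adjusted p = 0.106. SSA1, a further Hsp70, was called at 0.29 ± 0.07, but shares 64.7% of its 28-mers with its copies.

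Of the ribosome-bound chaperones and TRiC and prefoldin subunits, which fold newly made proteins, 5 of 21 were called higher and 9 lower. The call counts changed to 3 and 11 with library size alone, 3 and 8 by the DESeq2 Wald test and 3 and 7 without IDRm 42 °C replicate 1. The Hsp70s of the ribosome, SSB1 and SSB2, were lower at −0.79 ± 0.07 and −1.02 ± 0.07, with 60.6% and 60.9% of 28-mers shared, and the TRiC subunit CCT5 at −0.79 ± 0.09. Of the genes for folding in the endoplasmic reticulum, 5 of 15 were called higher and 4 lower. Other settings gave 3 and 5 with library size alone, 3 and 4 with DESeq2 size factors, 3 and 2 by the DESeq2 Wald test, 4 and 2 without IDRm 42 °C replicate 1, 2 and 2 without IDRm 42 °C replicate 2 and 2 and 1 without WT 42 °C replicate 1, and the list median was −0.01 without IDRm 42 °C replicate 2 and 0.01 without WT 42 °C replicate 1. HAC1, a transcription factor, was higher at 0.77 ± 0.19, and at 0.66 without IDRm 42 °C replicate 2 and 0.64 without WT 42 °C replicate 1. ERO1, the disulfide oxidase, was higher at 0.69 ± 0.09 and SEC61, the translocon channel, lower at −0.82 ± 0.09. Of mitochondrial chaperones and proteases 3 of 15 were called higher and 4 lower, with TIM44, a subunit of the import motor, at −0.94 ± 0.12. This list had 1 and 4 by the DESeq2 Wald test, 5 and 4 without the 30 °C libraries, 1 and 3 without IDRm 42 °C replicate 1 or without WT 42 °C replicate 1 and 2 and 2 without IDRm 42 °C replicate 2, and the list median was 0.02 without IDRm 42 °C replicate 1 and 0.03 without IDRm 42 °C replicate 2.

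Antioxidant genes were mostly higher: 17 of 25 were called higher and 4 lower, with a median of 0.55; the list medians were 0.25 at 40 °C and 0.10 at 30 °C. Calls came to 15 and 2 without WT 42 °C replicate 1. TSA2, a stress-inducible peroxiredoxin, had 53.3 and 37.7 CPM in IDRm and 19.4 and 14.2 CPM in WT, a difference of 1.41 ± 0.16 (edgeR, adjusted p = 1.90e-08). PRX1, the mitochondrial peroxiredoxin, had 169 and 147 CPM in IDRm and 68.0 and 62.3 CPM in WT, a difference of 1.27 ± 0.10 (edgeR, adjusted p = 3.89e-12). GRX1, a glutaredoxin, had 361 and 349 CPM in IDRm and 172 and 154 CPM in WT, a difference of 1.12 ± 0.08 (edgeR, adjusted p = 1.52e-12). The IDRm libraries lay above the WT libraries in each. The 4 called lower, named after their values were seen, were the glutathione synthesis genes GSH1 and GSH2, at −0.98 and −0.60, and the regulators YAP1 and SKN7, at −0.41 and −0.51.

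Among genes for energy metabolism, the nuclear genes for oxidative phosphorylation were mostly higher: 25 of 36 were called higher and 3 lower, with a median of 0.46; the list medians were 0.29 at 40 °C and 0.01 at 30 °C. NDI1, the internal NADH dehydrogenase, had 179 and 176 CPM in IDRm and 96.1 and 102 CPM in WT, a difference of 0.85 ± 0.09 (edgeR, adjusted p = 1.71e-09). QCR2, a core subunit of the cytochrome bc1 complex, and ATP1, the alpha subunit of ATP synthase, went the other way, at −0.89 ± 0.10 and −0.81 ± 0.08. Of tricarboxylic acid and glyoxylate cycle genes 9 of 22 were called higher and 2 lower, with the malate dehydrogenases MDH2 and MDH1 at 0.98 ± 0.10 and 0.84 ± 0.09 and SDH4, a membrane anchor of succinate dehydrogenase, at −0.90 ± 0.13. In other settings there were 8 and 1 without IDRm 42 °C replicate 1 and 7 and 1 without WT 42 °C replicate 1, and the list median was 0.11 without WT 42 °C replicate 1. Of 8 mitochondrially encoded genes, which are read by mitochondrial ribosomes, none was called higher and 2 lower. Higher and lower calls were 0 and 0 by the DESeq2 Wald test or without IDRm 42 °C replicate 2 or without WT 42 °C replicate 1, 0 and 1 without IDRm 42 °C replicate 1 and 0 and 5 without WT 42 °C replicate 2, and the list median was 0.06 without WT 42 °C replicate 1 and −0.52 without WT 42 °C replicate 2. The 2 genes were COB at −0.47 ± 0.17 and VAR1 at −0.95 ± 0.36, both uncertain, since VAR1 has few counts and COB shares 64.6% of its 28-mers: without WT 42 °C replicate 1, COB was at −0.29 and VAR1 at 0.01, neither called (edgeR, adjusted p = 0.34 and 0.991).

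Of glycolysis and fermentation genes 9 of 17 were called higher and 2 lower, with a median of 0.19; the list medians were −0.09 at 40 °C and −0.06 at 30 °C. The counts became 6 and 4 with library size alone, and the list median was 0.09 without WT 42 °C replicate 1 and 0.30 without WT 42 °C replicate 2. TDH1, a glyceraldehyde phosphate dehydrogenase, was higher at 1.15 ± 0.08 and ENO1, an enolase, at 0.59 ± 0.07, with 28.8% and 42.4% of 28-mers shared with copies. The abundant enzymes ADH1 and PGK1 were higher by less, at 0.33 ± 0.08 and 0.21 ± 0.07; PGK1 lost its call with library size alone, without IDRm 42 °C replicate 2 and without WT 42 °C replicate 1. CDC19, pyruvate kinase, was lower, with 3167 and 3365 CPM in IDRm and 4839 and 5204 CPM in WT, a difference of −0.62 ± 0.07 (edgeR, adjusted p = 3.53e-09). Among hexose transporters 5 of 11 were called higher and 1 lower. Members called higher and lower numbered 5 and 2 with library size alone and 5 and 0 without IDRm 42 °C replicate 1, and the list median was 0.55 without IDRm 42 °C replicate 1, −0.12 without IDRm 42 °C replicate 2, 0.42 without WT 42 °C replicate 1 and 0.05 without WT 42 °C replicate 2. HXT2, a high-affinity glucose transporter, had 1910 and 2002 CPM in IDRm and 690.1 and 758 CPM in WT, a difference of 1.43 ± 0.09 (edgeR, adjusted p = 2.53e-12). Its IDRm libraries did not overlap those of WT. Leaving out members above the limit on shared 28-mers used for named genes, 2 of 8 hexose transporters were called higher and 1 lower. By the same limit, 4 of 12 glycolysis and fermentation genes were called higher and 2 lower. Part of the higher calls in both lists thus rested on genes that share sequence with other genes.

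Amino acid biosynthesis genes, many of them under the transcription factor Gcn4, were called higher more often than lower: 31 of 61 were called higher and 6 lower, with a median of 0.22; the list medians were 0.05 at 40 °C and 0.03 at 30 °C. The call counts changed to 26 and 12 with library size alone, and the list median was 0.14 without WT 42 °C replicate 1. HIS5, an aminotransferase of histidine synthesis, had 251 and 242 CPM in IDRm and 120.3 and 109 CPM in WT, a difference of 1.10 ± 0.09 (edgeR, adjusted p = 1.32e-11). ARG1, argininosuccinate synthetase, had 237 and 264 CPM in IDRm and 104 and 138 CPM in WT, a difference of 1.06 ± 0.09 (edgeR, adjusted p = 1.04e-10). ARG1 had the wider spread between WT replicates. Sulfur and methionine genes did not move as a group: 6 of 24 were called higher and 10 lower. Other settings gave 2 and 12 with library size alone, 2 and 10 with DESeq2 size factors, 2 and 9 by the DESeq2 Wald test or without WT 42 °C replicate 1, 3 and 10 with the 4 libraries alone, 3 and 7 without IDRm 42 °C replicate 1 and 3 and 9 without IDRm 42 °C replicate 2, and the list median was −0.31 without WT 42 °C replicate 1 and −0.09 without WT 42 °C replicate 2. MET10, a sulfite reductase subunit, was lower at −1.11 ± 0.13, and was at −0.91 at 30 °C.

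Proteasome and ubiquitin genes had small differences: 23 of 43 were called higher and 4 lower, with a median of 0.20 and a range of −0.47 to 0.54. UBC4, a ubiquitin-conjugating enzyme of stress, was higher at 0.54 ± 0.07 and UBI4, the stress-induced polyubiquitin gene, at 0.53 ± 0.07. This list had 13 and 6 with library size alone, 14 and 4 by the DESeq2 Wald test, 15 and 1 without IDRm 42 °C replicate 2, 15 and 3 without WT 42 °C replicate 1 and 20 and 2 without WT 42 °C replicate 2. Cell wall genes had 17 called higher and 3 lower of 28, and at 30 °C 13 members were called higher, beside 9.58% of all genes. SED1, a structural wall glycoprotein of stressed cells, had 4857 and 5186 CPM in IDRm and 1480 and 2057 CPM in WT, a difference of 1.51 ± 0.12 (edgeR, adjusted p = 1.32e-06). FKS1 and CHS3, which make glucan and chitin, were lower at −1.72 ± 0.08 and −1.41 ± 0.14.

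**Figure D3:**
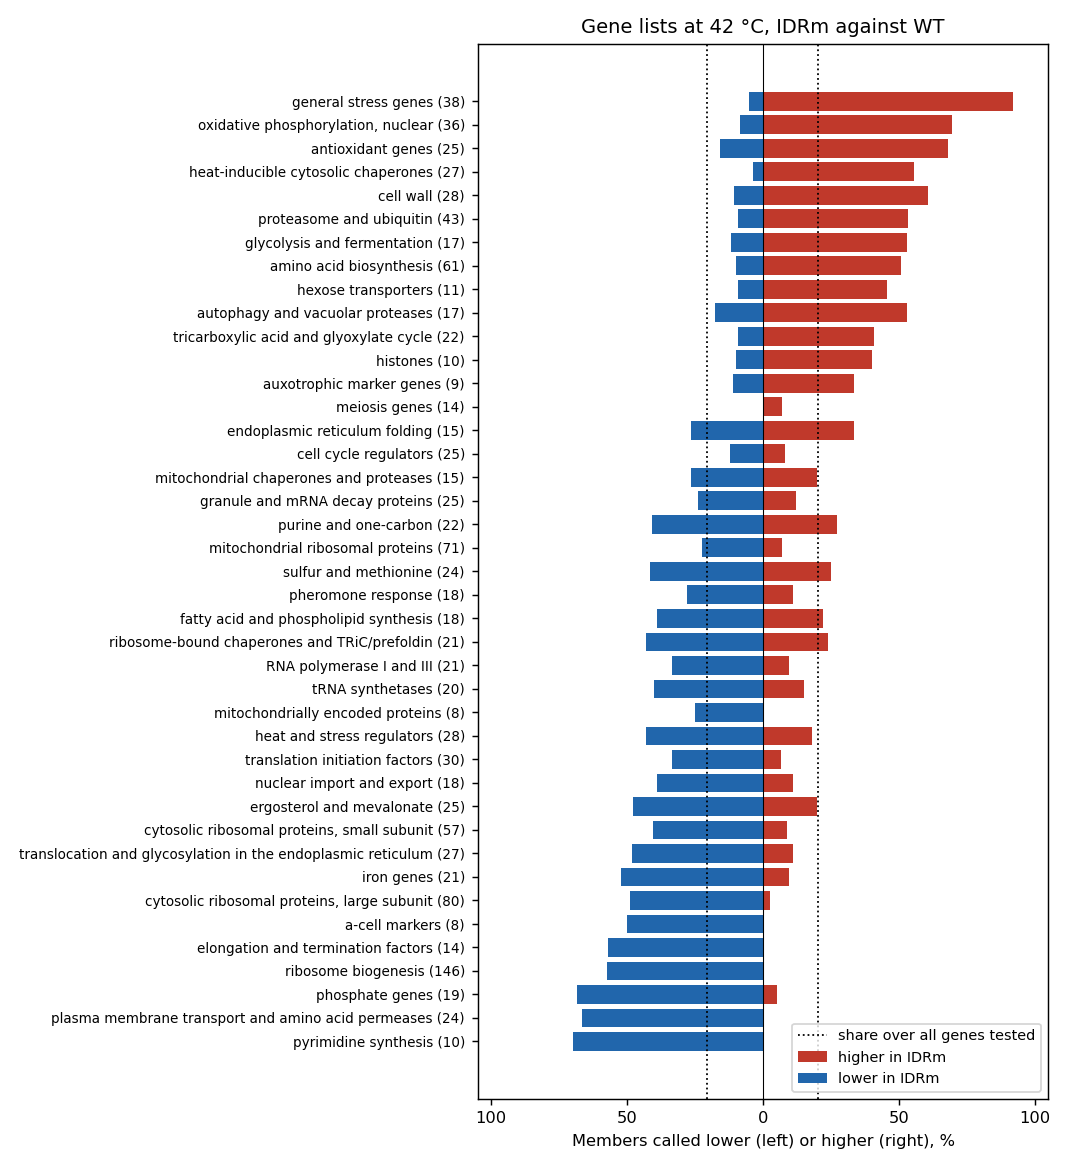
For each gene list with at least 8 genes tested (number in brackets), the percent of members called higher in IDRm at 42 °C to the right and lower to the left; dotted lines give the shares over all genes tested, 20.4% and 20.7%. General stress genes reach furthest right with 35 of 38, and pyrimidine synthesis furthest left with 7 of 10.

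Ribosome biogenesis genes, which process ribosomal RNA and assemble the subunits, were lower: 0 of 146 were called higher and 84 lower, with a median of −0.35 and a range of −1.42 to 0.25. Calls came to 1 and 64 without IDRm 42 °C replicate 2. At 30 °C 117 of 146 were called higher and 1 lower with a median of 0.42, beside 9.58% and 6.75% of all genes. At 40 °C the counts were 5 and 23 with a median of −0.07, beside 11.4% and 14.5% of all genes. MAK21, an assembly factor of the large subunit, had 75.8 and 78.1 CPM in IDRm and 211 and 201 CPM in WT, a difference of −1.42 ± 0.10 (edgeR, adjusted p = 1.40e-12). NAN1, a subunit of the small-subunit processome, had 101 and 95.1 CPM in IDRm and 245 and 232 CPM in WT, a difference of −1.28 ± 0.09 (edgeR, adjusted p = 5.52e-13). UTP23, a further processome factor, had 20.1 and 25.2 CPM in IDRm and 56.3 and 51.3 CPM in WT, a difference of −1.26 ± 0.14 (edgeR, adjusted p = 7.52e-09). At 30 °C the same genes stood at 0.34 ± 0.09, 0.38 ± 0.08 and 0.51 ± 0.11. The test of the difference between the temperatures, the strain difference at 42 °C minus that at 30 °C, called 127 of 146 members lower, where 16.1% of all genes were. For this list and each other list in which 0 members were called higher at 42 °C, edgeR found 0 members higher at an unadjusted p under 0.05 and DESeq2 called 0, except that 1 marker of MATa cells was higher at an unadjusted p under 0.05.

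RNA polymerase I and III subunits, which make ribosomal and transfer RNA, had 2 called higher and 7 lower of 21. In other settings there were 0 and 11 with library size alone, 1 and 8 with DESeq2 size factors, 0 and 6 by the DESeq2 Wald test, 1 and 6 without IDRm 42 °C replicate 1 or without WT 42 °C replicate 2, 0 and 8 without IDRm 42 °C replicate 2 and 1 and 7 without WT 42 °C replicate 1. RPA190, the largest subunit of polymerase I, had 123 and 131 CPM in IDRm and 346 and 290.1 CPM in WT, a difference of −1.33 ± 0.10 (edgeR, adjusted p = 1.42e-11). At 30 °C 12 members were called higher, where 9.58% of all genes were. Cytosolic ribosomal proteins were lower by small amounts: of the large subunit 2 of 80 were called higher and 39 lower, with a median of −0.13. Higher and lower calls were 1 and 58 with library size alone, 1 and 39 with DESeq2 size factors or with the 4 libraries alone or with no filter or without WT 42 °C replicate 1, 1 and 38 by the DESeq2 Wald test or without IDRm 42 °C replicate 2, 1 and 33 without IDRm 42 °C replicate 1 and 5 and 35 without WT 42 °C replicate 2, and the list median was −0.24 without WT 42 °C replicate 1. Of the small subunit 5 of 57 were called higher and 23 lower, with a median of −0.11. The counts became 3 and 34 with library size alone, 3 and 24 by the DESeq2 Wald test, 3 and 21 without IDRm 42 °C replicate 2 and 3 and 26 without WT 42 °C replicate 1, and the list median was −0.17 without WT 42 °C replicate 1 and −0.05 without WT 42 °C replicate 2. The medians of the large and small subunit at 40 °C were −0.37 and −0.33. In the test of 42 °C against 40 °C 11 and 15 members had a higher difference, where 6.24% of all genes did. A lower difference was called for 1 and 2 members, where 3.85% of all genes had one. Over all genes this balance turned with the scaling, as given below, and it was not recounted for these lists. RPS12, a small-subunit protein with no copy, had 981 and 1032 CPM in IDRm and 2995 and 3078 CPM in WT, a difference of −1.59 ± 0.07 (edgeR, adjusted p = 1.88e-18). RPL11A, a large-subunit protein with a near-identical copy, was at −1.86 ± 0.09 with 67.5% of 28-mers shared. Many members of both lists share sequence with a copy. With under 20% of 28-mers shared, 1 of 42 large-subunit genes was called higher and 19 lower. In the small subunit this left 35 genes, 5 called higher and 13 lower. Mitochondrial ribosomal proteins had 5 of 71 called higher (7.04%) and 16 lower (22.5%), where 20.4% and 20.7% of all genes were. The list median was −0.03, and MRPL10 stood at −1.67 ± 0.16. Members called higher and lower numbered 0 and 19 with library size alone, 1 and 16 with DESeq2 size factors, 0 and 9 by the DESeq2 Wald test, 2 and 10 without IDRm 42 °C replicate 1 or without WT 42 °C replicate 2, 1 and 12 without IDRm 42 °C replicate 2 and 1 and 11 without WT 42 °C replicate 1, and the list median was −0.06 without IDRm 42 °C replicate 1 and −0.06 without WT 42 °C replicate 1.

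Translation initiation factors were not uniformly changed, and a few members stood far out. In this list 2 of 30 were called higher and 10 lower, with a median of −0.13. The call counts changed to 2 and 20 with library size alone. Besides PAB1 and GCD7, TIF3, the eIF4B that stimulates helicase activity, was lower, with 131 and 129 CPM in IDRm and 334 and 324 CPM in WT, a difference of −1.34 ± 0.08 (edgeR, adjusted p = 4.04e-15). The libraries of the strains did not overlap in TIF3, nor, by the rule that chose them, in PAB1 and GCD7. The 2 called higher, named after their values were seen, were DBP1, the paralog of DED1, with 19.9 and 23.1 CPM in IDRm and 7.84 and 11.9 CPM in WT and a difference of 1.17 ± 0.18 (edgeR, adjusted p = 3.71e-06), and SUI1, the factor eIF1, at 0.39. Of elongation and termination factors 0 of 14 were called higher and 8 lower, among them SUP35, the release factor eRF3, at −0.92 ± 0.08 and EFT1 and EFT2, which encode the same elongation factor 2 and share 95.5% of their 28-mers, at −0.93 ± 0.09 and −0.59 ± 0.08. Other settings gave 1 and 8 without WT 42 °C replicate 2. TEF1, elongation factor 1A, shares 95.9% of its 28-mers with TEF2 and was not called, at −0.17 ± 0.08 (edgeR, adjusted p = 0.118). It was called with DESeq2 size factors, without IDRm 42 °C replicate 1 and without WT 42 °C replicate 2 (edgeR, adjusted p = 0.046, 0.041 and 0.0149).

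Of tRNA synthetases 3 of 20 were called higher and 8 lower, with CDC60, leucyl-tRNA synthetase, at −0.88 ± 0.07 beside ALA1. Granule and mRNA decay proteins had 3 called higher and 6 lower of 25. This list had 1 and 10 with library size alone, 1 and 4 without IDRm 42 °C replicate 1 and 5 and 4 without WT 42 °C replicate 2, and the list median was −0.04 without IDRm 42 °C replicate 2, −0.04 without WT 42 °C replicate 1 and −0.03 without WT 42 °C replicate 2. PBP1, a stress granule protein that binds Pab1, had 48.5 and 44.9 CPM in IDRm and 101 and 93.5 CPM in WT, a difference of −1.06 ± 0.11 (edgeR, adjusted p = 1.31e-09). DHH1, a DEAD-box protein of mRNA decay, was higher at 0.36 ± 0.08. Nuclear import and export factors had 2 called higher and 7 lower of 18, led by PSE1, an importin, at −1.87 ± 0.13.

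Of plasma membrane transporters and amino acid permeases 0 of 24 were called higher and 16 lower, with a median of −0.37; the list medians were −0.41 at 40 °C and 0.02 at 30 °C. PMA1 (YGL008C, chromosome VII, 479910 to 482666), the proton pump of the plasma membrane, had 3191 and 3433 CPM in IDRm and 7873 and 8196 CPM in WT, a difference of −1.28 ± 0.07 (edgeR, adjusted p = 3.10e-16). GAP1 (YKR039W, chromosome XI, 515063 to 516871), the general amino acid permease, had 410.1 and 411 CPM in IDRm and 1342 and 1335 CPM in WT, a difference of −1.71 ± 0.07 (edgeR, adjusted p = 1.88e-18). Both genes had close replicates and no overlap. GAP1 and MEP2 were low at the other temperatures too, with −1.88 ± 0.07 and −2.93 ± 0.10 at 40 °C and −1.50 ± 0.07 and −2.06 ± 0.11 at 30 °C, whereas PMA1 was at 0.04 ± 0.07 at 30 °C.

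Of phosphate genes 1 of 19 were called higher and 13 lower, with a median of −0.67; the list medians were −0.46 at 40 °C and −0.13 at 30 °C. PHO5, the secreted acid phosphatase, had 24.9 and 23.5 CPM in IDRm and 100.1 and 104 CPM in WT, a difference of −2.07 ± 0.13 (edgeR, adjusted p = 2.46e-14). PHO5 shares 21.5% of its 28-mers with other genes. The member called higher, named after its value was seen, was PHM8, a phosphatase, at 0.67. Of iron genes 2 of 21 were called higher and 11 lower. Calls came to 2 and 7 without IDRm 42 °C replicate 1 and 4 and 10 without WT 42 °C replicate 2. FET3, the oxidase of high-affinity iron uptake, had 97.7 and 102 CPM in IDRm and 225 and 233 CPM in WT, a difference of −1.20 ± 0.10 (edgeR, adjusted p = 5.33e-11). The strains did not overlap in FET3.

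Of genes for translocation into and glycosylation in the endoplasmic reticulum 3 of 27 were called higher and 13 lower, with a median of −0.22. STT3, the catalytic subunit of oligosaccharyltransferase, had 74.1 and 87.0 CPM in IDRm and 202 and 198 CPM in WT, a difference of −1.31 ± 0.09 (edgeR, adjusted p = 2.59e-13). SSH1, the channel of the second translocon, had 73.2 and 74.2 CPM in IDRm and 171 and 167 CPM in WT, a difference of −1.20 ± 0.09 (edgeR, adjusted p = 1.54e-12). Of ergosterol and mevalonate genes 5 of 25 were called higher and 12 lower, with a median of −0.21; the list medians were −0.22 at 40 °C and 0.02 at 30 °C. In other settings there were 3 and 11 without IDRm 42 °C replicate 2. ERG11, the sterol demethylase, had 219.6 and 232 CPM in IDRm and 709.7 and 729 CPM in WT, a difference of −1.67 ± 0.08 (edgeR, adjusted p = 6.06e-18). ERG20, farnesyl pyrophosphate synthase, had 133 and 129 CPM in IDRm and 311 and 290.1 CPM in WT, a difference of −1.20 ± 0.07 (edgeR, adjusted p = 1.14e-14). The IDRm libraries of ERG11 were all below those of WT. Of fatty acid and phospholipid genes 4 of 18 were called higher and 7 lower, with FAS2, a subunit of fatty acid synthase, at −0.95 ± 0.07 and FAA1, an acyl-CoA synthetase, at 0.66 ± 0.07. Higher and lower calls were 2 and 9 with library size alone, 2 and 7 by the DESeq2 Wald test, 2 and 6 without IDRm 42 °C replicate 1 and 2 and 5 without WT 42 °C replicate 1, and the list median was −0.07 without IDRm 42 °C replicate 1.

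In nucleotide synthesis, 0 of 10 were called higher and 7 lower among pyrimidine genes, with a median of −0.34. After URA6 followed URA5, an enzyme of the de novo pathway, at −0.99 ± 0.10 and FUI1, the uridine permease, at −0.80 ± 0.13. Of purine and one-carbon genes 6 of 22 were called higher and 9 lower. The list median moved to −0.08 without WT 42 °C replicate 1. SHM1, the mitochondrial serine hydroxymethyltransferase, had 26.7 and 34.1 CPM in IDRm and 102 and 93.8 CPM in WT, a difference of −1.70 ± 0.11 (edgeR, adjusted p = 7.86e-14). GCV1, a subunit of glycine decarboxylase, had 133 and 122 CPM in IDRm and 57.7 and 55.5 CPM in WT, a difference of 1.17 ± 0.10 (edgeR, adjusted p = 7.16e-11). These enzymes of one-carbon metabolism thus stood on opposite sides of WT.

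Regulators of heat and stress responses were mixed: 5 of 28 were called higher and 12 lower. The counts became 6 and 6 without IDRm 42 °C replicate 1 and 5 and 5 without WT 42 °C replicate 1, and the list median was −0.18 without IDRm 42 °C replicate 1 and −0.12 without WT 42 °C replicate 1. MSN4, a transcription factor that binds the stress response element, had 122 and 115 CPM in IDRm and 55.3 and 63.2 CPM in WT, a difference of 1.01 ± 0.10 (edgeR, adjusted p = 5.83e-10). TPK3, a catalytic subunit of protein kinase A, was lower at −1.34 ± 0.18, beside PDE2. MSN2, named after its value was seen, was lower at −0.38, and HSF1 was not called at −0.26.

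The differences at 42 °C were set against the heat response of WT itself. That response was read from the 30 and 40 °C libraries of WT, none of which is compared at 42 °C. Those libraries do share the scaling and the estimate of spread behind the calls at 42 °C. Of 524 genes that rose at least 4-fold in WT at 40 °C, 50.2% were called higher in IDRm at 42 °C and 8.02% lower, with a median difference of 0.46. Of 315 genes that fell at least 4-fold, 1.59% were called higher and 61.6% lower, with a median of −0.45. The 1400 genes not called in WT had 14.1% and 11.4%. Over 5719 genes the Spearman correlation of the strain difference at 42 °C with the change of WT from 30 to 40 °C was 0.47, a description across genes that are not independent, in libraries whose WT cultures are shared. Genes that rose in WT at 40 °C thus tended to be higher in IDRm at 42 °C, and genes that fell tended to be lower. Levels also moved between 40 and 42 °C, which the classes do not show. HSP12 had mean levels of 2745 and 155 CPM in WT at 40 and 42 °C, and 4161 and 1021 CPM in IDRm. PAB1 had 376 and 771 CPM in WT and 194 and 198 CPM in IDRm. URA6 differed from both, with 84.9 and 79.5 CPM in WT and 23.2 and 8.81 CPM in IDRm.

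**Figure D4:**
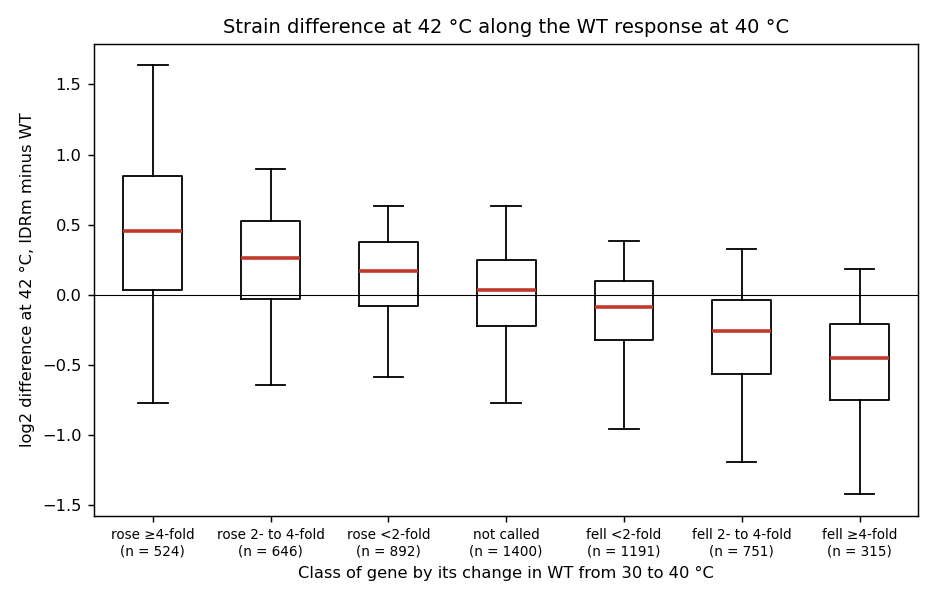
Boxes give the quartiles and median, and whiskers the 5th and 95th percentiles, of the log2 difference at 42 °C, IDRm minus WT, for genes classed by their called change in WT from 30 to 40 °C. The median runs from 0.46 among genes that rose at least 4-fold to −0.45 among genes that fell at least 4-fold.

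Among 5590 annotated genes, the stress response element shown above occurred in the same 300-base window of 23.7%. It occurred in 34.0% of the genes called higher and 22.3% of those called lower. Of the 141 annotated genes at least 2-fold higher 85 (60.3%) had it, and 53.8% of those outside the general stress list. By the number of elements, 17.9% of 4265 genes with none were called higher, 25.8% of 1106 with 1, 46.4% of 166 with 2 and 58.5% of 53 with 3 or more. The heat shock element bound by Hsf1, searched as GAANNTTC or TTCNNGAA, was in 23.0% of all, 22.6% of higher and 24.7% of lower genes. The PAC element of ribosome biogenesis genes, GATGAG or CTCATC on the other strand, was in 17.0%, 17.2% and 19.3%, and in 23.2% of genes at least 2-fold lower. Matches had to be exact, matches of different motifs could overlap, and a match is not a bound site.

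The genes called higher had shorter coding sequences than those called lower. The median coding length was 1246.5 bases over all tested genes, 945 among those called higher and 1623 among those called lower. In the shortest of 4 equal classes 31.7% of genes were called higher and 10.9% lower, and in the longest 9.53% and 31.8%. The Spearman correlation across genes of length with the strain difference was −0.29 at 42 °C, −0.22 at 40 °C and −0.23 at 30 °C, so it was present without heat. The predicted folding energy of the 50 bases on either side of the start of the coding sequence had a median of −13.3 kcal/mol over all genes, −11.7 among higher and −14.4 among lower genes, where a lower value means a more stable structure. Its correlation with the strain difference was 0.21 at 42 °C and 0.07 at 30 °C. The median GC content of the 50 bases before the start codon was 34% over all genes, 32% among higher and 36% among lower genes. Genes share function, length and base composition, and no test was made of these descriptions.

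Fewer genes were called at the lower temperatures. At 40 °C 653 genes (11.4%) were called higher and 831 (14.5%) lower, and at 30 °C 548 (9.58%) and 386 (6.75%). Of the genes called higher at 42 °C, 501 were also called higher at 40 °C, which is 43.0% of the list at 42 °C and 76.7% of that at 40 °C, and 207 at 30 °C, 17.8% and 37.8%. Of those called lower, 554 were also lower at 40 °C, 46.8% and 66.7%, and 170 at 30 °C, 14.4% and 44.0%. Genes called in opposite directions were few at 40 °C, with 20 of the higher and 5 of the lower genes, while 130 genes lower at 42 °C were called higher at 30 °C and 32 genes higher at 42 °C were called lower there. The libraries of these comparisons are distinct, but come from the same cultures. Across genes the Spearman correlation with the difference at 42 °C was 0.63 for 40 °C and 0.22 for 30 °C.

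Whether the strain difference itself changed with temperature was tested in the same fit. Against 30 °C, 650 genes (11.4%) had a higher and 919 (16.1%) a lower difference at 42 °C, or 455 and 1098 with library size alone. Without IDRm 30 °C replicate 1 the number with a higher difference was 415. HXK1 had a strain difference of −0.27 ± 0.17 at 30 °C and 2.19 ± 0.15 at 42 °C, a change of 2.46 ± 0.22 (edgeR, adjusted p = 4.28e-05). URA6 went from −0.44 ± 0.10 to −3.16 ± 0.16, a change of −2.72 ± 0.20 (edgeR, adjusted p = 2.06e-12). PAB1, at −0.03 ± 0.06 at 30 °C and −0.95 ± 0.07 at 40 °C, changed by −1.93 ± 0.09 (edgeR, adjusted p = 6.32e-16) between 30 and 42 °C. The excess of HXK1 and the deficits of URA6 and PAB1 were thus larger at 42 °C. SNZ1 was called higher in IDRm at 30 °C already, at 1.53 ± 0.09, and its excess also grew, by 1.06 ± 0.17 (edgeR, adjusted p = 1.08e-05). SPG4 was called at 30 °C too, at 1.78 ± 0.53, but rests there on 1.14 and 4.03 CPM in IDRm and 0.608 and 1.08 CPM in WT.

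Against 40 °C, 357 genes (6.24%) had a higher and 220 (3.85%) a lower difference at 42 °C, 10.1% in all, a balance that turned with the scaling, to 207 and 282 with DESeq2 size factors and 211 and 296 with library size alone. Leaving out a library moved these counts too. The number with a higher difference was 148 without IDRm 40 °C replicate 1, 236 without its replicate 2, 200 and 193 without IDRm 42 °C replicate 1 and 2, 227 without WT 40 °C replicate 2 and 223 without WT 42 °C replicate 1. The number with a lower difference was 114 and 139 without IDRm 40 °C replicate 1 and 2, and 123 and 144 without IDRm 42 °C replicate 1 and 2. HSP12 had a strain difference of 0.60 ± 0.27 at 40 °C and 2.71 ± 0.31 at 42 °C, a change of 2.11 ± 0.40 (edgeR, adjusted p = 0.0242). GCD7 went from −0.41 ± 0.12 to −2.22 ± 0.13, a change of −1.81 ± 0.18 (edgeR, adjusted p = 2.98e-08). In general stress genes 17 members had a higher and 2 a lower difference at 42 °C than at 40 °C.

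**Figure D5:**
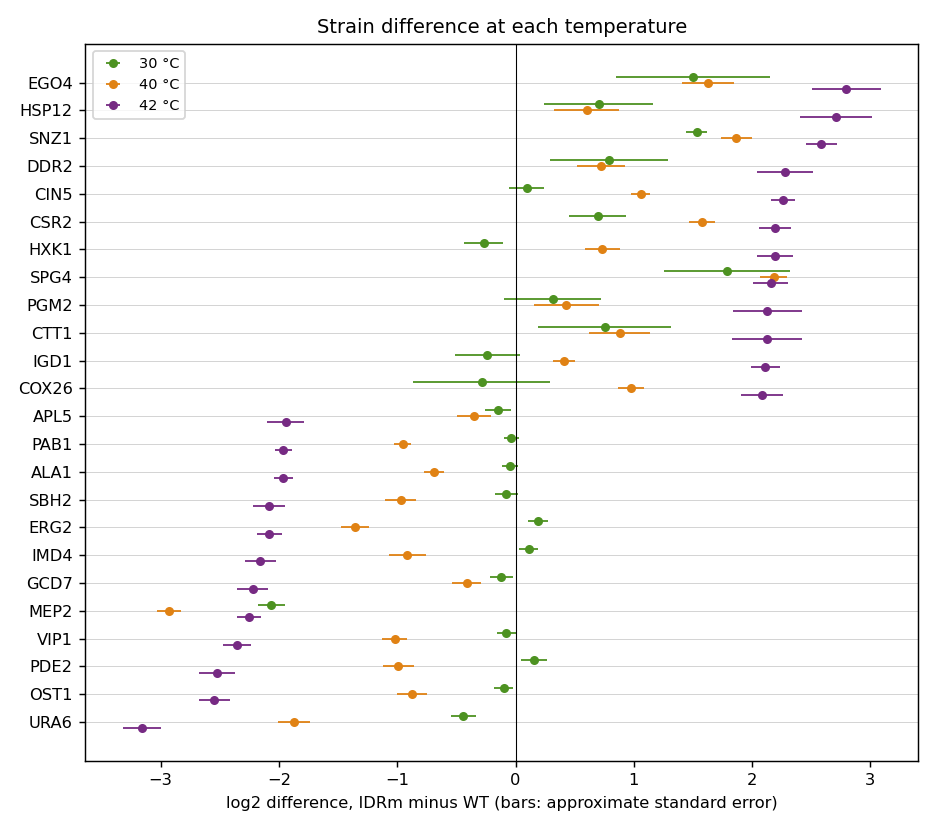
Log2 difference, IDRm minus WT, at 30, 40 and 42 °C for the 24 genes of the plot of CPM per library, with bars of 1 approximate standard error. For URA6 the points run from −0.44 at 30 °C over −1.88 at 40 °C to −3.16 at 42 °C, whereas SPG4 lies at 1.78, 2.18 and 2.16.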

How the data were processed

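Ribosome footprint counts per gene were used as deposited by the authors, with 12 libraries as columns and no further normalization of the counts. Tools that appear in the submitters' processing notes are STAR 2.5.2b, Bowtie2 2.2.6, cutadapt 1.17 and bcl2fastq 2.17.1.14, with R64 as the build. How reads were assigned to genes, and whether strand was used, is not given in the sources used here, so antisense or overlapping genes and copies may share reads. Of 6697 identifiers 6014 matched the R64 annotation of RefSeq.

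The test was that of edgeR 4.0.16 (R 4.3.3): TMM scaling, the expression filter with a minimum count of 10 and a minimum total of 15 (5719 genes kept), 1 mean for each of 6 groups, and robust quasi-likelihood F tests with 6 residual degrees of freedom. Adjusted p-values are Benjamini-Hochberg values for all 5719 genes of a comparison. They measure the spread between 2 libraries a group, from duplicate pre-cultures, and treat the 12 libraries as independent. Approximate standard errors are the difference divided by the square root of F. CPM used TMM-scaled library sizes, and depth, given in the report, limits genes with few counts.

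Members, gene lists and tests were chosen with earlier results of these data known, and lists are described by counts and medians only. Named are the 12 highest and 12 lowest called differences with a mean of at least 20 CPM, no overlap of the strains and under 20% of 28-mers shared, leaving out dubious frames that overlap a gene; for each list up to 3 called members with the largest difference, or the 2 with the highest level where none was called; 12 genes always given; and for each change with temperature the 6 highest and 6 lowest. Other named members were chosen after their values were seen. Values of some genes that these rules named are left out, among them PIM1 and JAC1. Chosen after the data had been seen were the motif window, the folded bases (RNAfold 2.7.2, 100 bases at 37 °C), the GC measure and the 2-fold and 4-fold classes of heat response.

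Alternatives were other scalings, no filter, fewer libraries, DESeq2 1.42.0, replicate blocks, larger minimum changes, no genes with shared 28-mers, and each library left out. The fit was tested on simulated data, with 50 genes changed by each fold. It called 38% of those changed 1.25-fold, 72% at 1.5-fold, 94% at 2-fold and 100% at 4-fold. Of 5443 unchanged genes it called 13. The simulated libraries were drawn independently with the fitted spread, from 1 mean for all groups. Far fewer genes were changed than the 41.1% called in the data. The simulation thus shows the fit under its own assumptions, and not with shared cultures or differences as widespread as these.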

Additional observations from a re-analysis of the deposited data

Results flagged for a closer look

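The strain difference, IDRm minus WT, changed with temperature in a test of that change itself for 650 genes with a higher and 919 with a lower difference at 42 °C than at 30 °C, and for 357 and 220 against 40 °C. In log2 units with approximate standard errors, the highest changes by the rule for named genes against 30 °C were COX26 at 2.37 ± 0.63, IGD1 at 2.35 ± 0.31, HXK1 at 2.46 ± 0.22, CIN5 at 2.17 ± 0.18, MTH1 at 2.19 ± 0.29 and MIG2 at 2.54 ± 0.22. The lowest were URA6 at −2.72 ± 0.20, OST1 at −2.45 ± 0.16, PDE2 at −2.68 ± 0.19, VIP1 at −2.27 ± 0.15, IMD4 at −2.27 ± 0.15 and ERG2 at −2.27 ± 0.14. Against 40 °C the highest were IGD1 at 1.70 ± 0.15, PGM2 at 1.70 ± 0.40, HXK1 at 1.46 ± 0.21, DDR2 at 1.55 ± 0.31, HSP12 at 2.11 ± 0.40 and MIG2 at 2.04 ± 0.30, and the lowest OST1 at −1.67 ± 0.19, GCD7 at −1.81 ± 0.18, APL5 at −1.59 ± 0.22, CDC20 at −1.84 ± 0.29, SWI5 at −1.68 ± 0.33 and RRT14 at −2.20 ± 0.38.

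MIG2, a repressor of glucose-repressed genes, had 25.8 and 32.4 CPM in IDRm and 5.62 and 4.9 CPM in WT at 42 °C, and MTH1, a regulator of hexose transporter genes, had 31.9 and 36.5 CPM in IDRm and 10.1 and 8.16 CPM in WT. CDC20, the activator of the anaphase-promoting complex, had 8.74 and 7.21 CPM in IDRm and 25.3 and 21.9 CPM in WT, and SWI5, a transcription factor of late mitosis, had 5.24 and 6.25 CPM in IDRm and 14.9 and 13.8 CPM in WT. RRT14 had 9.4 and 9.13 CPM in IDRm and 32.5 and 26.4 CPM in WT. In these genes the libraries of the strains did not overlap, and the lower strain had few counts. The change of COX26 against 30 °C also rests on few counts. At 30 °C it had 0.569 and 1.17 CPM in IDRm and 0.973 and 1.35 CPM in WT. The changes of named genes were called in edgeR with adjusted p-values of at most 0.05 over 5719 genes.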

How the results depend on the processing

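At 42 °C the counts of genes called higher and lower were 145 and 215 with a change of at least 2-fold, and 176 and 251 with a test against 1.5-fold. The Wald test of DESeq2 called 742 higher. Leaving out 1 library at 42 °C gave 853 to 1061 higher and 886 to 1090 lower. The other settings stayed within 1.5 times the counts given, including no filter, the 4 libraries alone and, added after the data were seen, a fit without both WT 30 °C libraries (1229 and 1240). For the change against 30 °C, a minimum of 2-fold gave 123 and 223, a test against 1.5-fold 80 and 204, and the Wald test 316 with a higher difference. With 1 library left out the counts were 415 to 738 and 690 to 935. Against 40 °C the same settings gave 28 and 51, 13 and 15, and 125 higher by the Wald test; DESeq2 size factors and library size alone gave 207 and 211 higher, and leaving out 1 library 148 to 428 and 114 to 241. The causes were not tested; the first settings ask for larger changes by construction, and a group left with 1 library is assumed to vary like the others.

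Of 138 named genes called at 42 °C, 14 lost the call or turned sign in at least 1 of the settings compared gene by gene. Settings that ask for a larger minimum change were left out of this tally, as was the one without genes that share sequence. Called genes with differences below such a minimum would lose their call by construction. Only VAR1 turned, with −1.36 to 0.00818 when 1 library at 42 °C was left out, the latter without WT replicate 1. The others were SSA3, JAC1, HAC1, COB, SUL2, UBC5, HHT2, HTA1, HOP1, CAN1, MFA1, STE3 and PGK1.

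Replicate numbers are not stated to pair the strains. Deviations of same-numbered libraries correlated at 0.154 at 42 °C, 0.060 at 40 °C and 0.025 at 30 °C. With a replicate block, 1167 genes were called higher and 1185 lower at 42 °C, 649 and 925 changed against 30 °C, and 361 and 216 against 40 °C; a block by culture gave 681 and 943, and 405 and 251.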

Other observations

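Lists for the cell cycle, vacuole and mating were described apart. Of cell cycle regulators 2 of 25 were called higher and 3 lower, and the lower ones were CDC20, SWI5 and SWI6, at −1.57, −1.33 and −0.50. At 30 °C, 9 members of this list were called lower, beside 6.75% of all genes. The list median moved to −0.03 without IDRm 42 °C replicate 2. Of histone genes 4 of 10 were called higher and 1 lower, with HHF1 at 0.40 ± 0.08 and 45.6% of its 28-mers shared with other genes. Members called higher and lower numbered 1 and 1 with library size alone, 2 and 1 by the DESeq2 Wald test, 1 and 0 without IDRm 42 °C replicate 1, 3 and 0 without IDRm 42 °C replicate 2 or without WT 42 °C replicate 1 and 4 and 0 without WT 42 °C replicate 2. Of autophagy and vacuolar protease genes 9 of 17 were called higher and 3 lower, with PAI3, an inhibitor of proteinase A, at 1.31 ± 0.22 and PEP1, a vacuolar sorting receptor, at −0.93 ± 0.09. The call counts changed to 5 and 3 with library size alone or by the DESeq2 Wald test or without WT 42 °C replicate 1, and the list median was 0.12 without WT 42 °C replicate 1. Of 14 meiosis genes 1 was called; this was HOP1, higher, at 0.17 without IDRm 42 °C replicate 1 in place of 0.79. Other settings gave 0 and 0 with library size alone or with DESeq2 size factors or by the DESeq2 Wald test or with the 4 libraries alone or without IDRm 42 °C replicate 1 or without WT 42 °C replicate 1, and the list median was 0.25 without IDRm 42 °C replicate 2 and 0.00 without WT 42 °C replicate 2.

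Of a-cell markers 0 of 8 were called higher and 4 lower, among them STE2, the receptor for alpha factor, with 148 and 159 CPM in IDRm and 242 and 215 CPM in WT, and STE6, the exporter of a factor, at −0.62 ± 0.09. At 30 °C 6 of these markers were called lower, where 6.75% of all genes were, with a list median of −0.65 against −0.19 at 42 °C. This list had 1 and 4 without the 30 °C libraries or without both WT 30 °C libraries and 1 and 2 without IDRm 42 °C replicate 2, and the list median was −0.31 without WT 42 °C replicate 1. Of pheromone response genes 2 of 18 were called higher and 5 lower, with SST2, which desensitises the pathway, at −1.08 ± 0.14 and at −1.19 ± 0.11 at 30 °C. Calls came to 1 and 6 with library size alone and 1 and 5 by the DESeq2 Wald test or without IDRm 42 °C replicate 1 or without WT 42 °C replicate 1, and the list median was −0.20 without IDRm 42 °C replicate 1. STE3, the receptor of alpha cells, was called higher at 0.60 ± 0.22 with 13.8 and 11.5 CPM in IDRm and 8.87 and 7.7 CPM in WT, and lost its call without IDRm 42 °C replicate 1, WT 42 °C replicate 1 or WT 42 °C replicate 2. Of auxotrophic marker genes 3 of 9 were called higher and 1 lower; LEU2 was at 0.56 ± 0.11 and ADE1 at 0.43 ± 0.08. In other settings there were 3 and 2 with library size alone and 3 and 0 by the DESeq2 Wald test or without IDRm 42 °C replicate 1 or without WT 42 °C replicate 1.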
